A study of Mus musculus with 4 samples.

Results

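Tropomyosins are coiled-coil proteins that lie along actin filaments and set which other proteins can bind there. In smooth muscle they work beside alpha actin, smooth muscle myosin and calponin, and nonmuscle forms stabilise the actin cytoskeleton of most other cells. In the testis, peritubular myoid cells form a thin contractile wall around each seminiferous tubule and squeeze sperm towards the outlet. Smooth muscle around blood vessels carries the same contractile genes. The genes described here are 10 of the 44509 symbols in the deposited table, chosen by name: the 5 tropomyosin genes Tpm1, Tpm2, Tpm3, Tpm4 and Tpm3-rs7, and the 5 contractile genes Acta2, Myh11, Cnn1, Tagln and Myl9. They were picked with values of the same comparison known, above all the near absence of Tpm3-rs7 from the treated libraries. The levels and group differences of these 10 genes are therefore given as a description, with no test.

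The series holds 4 RNA-seq libraries of mouse testis tissue. Libraries busulfan 1 and 2 came from mice made oligozoospermic with busulfan, a drug that crosslinks DNA and depletes germ cells, and libraries Cus-1 1 and 2 from such mice that were then treated with Cus-1, which the series title calls a resin glycoside and a cuscutae extract. All 4 libraries thus share the busulfan injury, and no untreated testis was analysed here. The treatment text is worded alike for all 4 samples. Strain, age, dose and timing are not in the labels, nor is it said whether the 2 libraries of a group are separate animals, so spread between them may be technical. Group membership rests on the source label, because the sample titles (beginning BPA and CUS2) name neither busulfan nor Cus-1. Values are FPKM, fragment numbers scaled for gene length and library depth, with a summed FPKM of 726041 to 742689 per library. The files used here give no depth. Fragment numbers given here are estimates from the step between the lowest FPKM values of a library.

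Of the 10 genes, Tpm3-rs7 differed most between the groups on the log2 scale, and it is an almost exact copy of Tpm3. Tpm3-rs7 is taken here for a retrogene, a gene made when a spliced messenger RNA was copied back into the genome. That reading rests on its 1 exon and its alignment with a spliced Tpm3 transcript, and is no label of the annotation. In the GENCODE M21 annotation of build mm10 (GRCm38), Tpm3-rs7 has 1 exon of 2147 bases on the plus strand of chromosome 14 (113314608 to 113316754). It is annotated there as protein-coding, while the RefSeq table of the same build lists it as a pseudogene. Tpm3, which encodes the gamma tropomyosin of slow muscle and several nonmuscle forms, lies on the plus strand of chromosome 3 (90072649 to 90100902). The Tpm3-201 transcript of 8 exons aligned with the copy over 2102 bases at 99.38% identity, with 13 differing bases and 3 gaps. Its coding part of 744 bases aligned in full and held 3 of the 13 differences, G264A, G290A and G319A, counted from the first base of Tpm3-201 with the Tpm3 base first. The first 150 coding bases of both genes hold all 3, and are shown because they are the only coding bases that tell the copies apart. They are transcript positions 193 to 342 of Tpm3-201, and chr14:113314676-113314825 on the plus strand of mm10 for the copy, from the GENCODE M21 transcripts, with capitals at the differing bases.
Tpm3: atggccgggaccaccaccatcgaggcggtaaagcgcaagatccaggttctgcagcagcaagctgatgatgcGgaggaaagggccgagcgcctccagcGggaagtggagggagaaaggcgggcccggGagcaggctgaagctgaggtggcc
Tpm3-rs7: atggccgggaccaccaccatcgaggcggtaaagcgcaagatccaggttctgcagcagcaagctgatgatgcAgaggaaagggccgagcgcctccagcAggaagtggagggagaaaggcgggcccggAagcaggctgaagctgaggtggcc

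**Figure D1:**
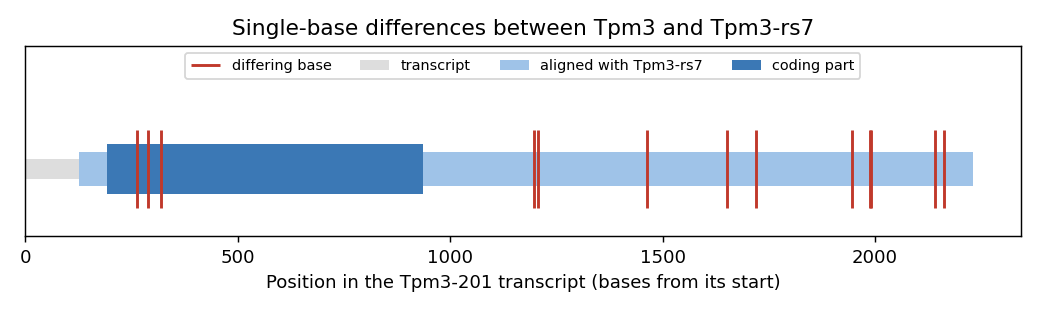
Position along the Tpm3-201 transcript in bases (x axis) of the 13 bases that differ from Tpm3-rs7 (vertical lines), with the aligned part and the coding part as bars. The coding part holds 3 differences, all near its start, and the other 10 lie 3′ of it.

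Within the aligned part, a fragment can be assigned to one copy by its sequence only where it covers a differing base or a gap. The longest run of identical bases was 624. Of all 50-base stretches of Tpm3-rs7, 69.45% also occurred in a Tpm3 transcript, as did 49.8% of its 100-base and 33.83% of its 150-base stretches. Seen from Tpm3 and all its annotated transcripts, 15.76% of the 100-base stretches occurred in the copy. For comparison, 41.4% of the 16538 tested genes found in the annotation had at least 1 stretch of 100 bases in common with another gene, and 5.47% shared as large a part as Tpm3-rs7. How the authors' counting treated fragments that match both copies is not given in the sources used here, so the split between Tpm3 and Tpm3-rs7 is uncertain in every library.

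Tpm3-rs7 was at 44.95 and 36.08 FPKM in busulfan 1 and 2, and at 0.14 and 0.33 FPKM in Cus-1 1 and 2. Both busulfan libraries lay far above both treated ones, the lower busulfan value being 109.3 times the higher treated value. The group means were 40.5 ± 6.27 and 0.235 ± 0.134 FPKM (SD, n = 2), a difference of -5.07 on the log2(FPKM + 1) scale (SE 0.23), which understates the change of low values. By the estimate from low-value steps, the 2 treated libraries held about 4.4 and 8.7 fragments of it and the 2 busulfan libraries about 1191.5 and 1114.6. The copy made up 26.0% and 28.7% of the combined Tpm3 and Tpm3-rs7 FPKM in the busulfan libraries, and 0.164% and 0.310% in the treated ones.

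The question put to this pair was whether Tpm3 gained what its copy lost. Tpm3 read 127.66 and 89.52 FPKM in busulfan 1 and 2, against 85.11 and 106.02 FPKM in Cus-1 1 and 2. The groups overlapped: Cus-1 2 was above busulfan 2, and Cus-1 1 was the lowest of the 4. The means were 109 ± 27.0 and 95.6 ± 14.8 FPKM (SD, n = 2), so on average Tpm3 was 13.0 FPKM lower where its copy was 40.3 FPKM lower. Set against each busulfan library in turn, a treated library was higher in Tpm3 in 1 of 4 pairings, Cus-1 2 against busulfan 2, by 16.5 FPKM, where Tpm3-rs7 was lower by 35.75 FPKM. On the deposited values, a gain in Tpm3 reached the loss of the copy in 0 of 4 pairings, which reuse the same 4 libraries. The sum of both genes was 172.61 and 125.6 FPKM in the busulfan libraries and 85.25 and 106.35 FPKM in the treated ones. As deposited it was lower in all 4 pairings. The direction in Tpm3 depended on the scaling. Centred on Sertoli cell genes, which shifts all genes up alike, the log2 fold change of Tpm3 went from -0.17 to 0.47. That of the sum went from -0.62 to 0.017. Weighted by transcript length, with the 2230 bases of Tpm3-201 standing for Tpm3, the sum averaged 147.6 ± 33.0 and 95.8 ± 14.9 FPKM, in the same order. The gene lengths behind the deposited FPKM are not given, so this sum only approximates an adding up of fragments.

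**Figure D2:**
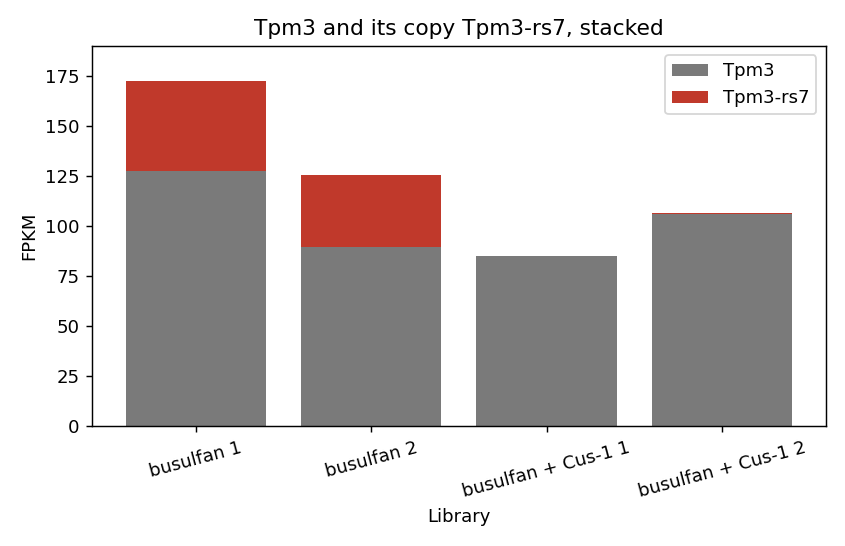
FPKM (y axis, from 0) of Tpm3 with Tpm3-rs7 stacked on it, for each of the 4 libraries (x axis). The copy is a visible part of both busulfan bars (44.95 and 36.08 FPKM) and of neither Cus-1 bar. The Tpm3 part overlaps between the groups, Cus-1 2 (106.02) lying between busulfan 2 (89.52) and busulfan 1 (127.66).

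A ratio within a library is free of its scaling, and how Tpm3 compared then depended on the gene it was divided by. Tpm3 as a ratio to Tpm1 was 1.207 and 0.963 with busulfan and 1.618 and 1.491 with Cus-1, higher in both treated libraries. When the copy was added to Tpm3, the ratio to Tpm1 was 1.632, 1.351, 1.621 and 1.495 and the groups overlapped. Divided by the sum of Tpm1 and Tpm2, Tpm3 alone was higher with Cus-1, at 0.774, 0.673, 0.982 and 0.968. With its copy, that ratio overlapped between the groups, at 1.046, 0.945, 0.984 and 0.971. Against the 5 contractile genes together, Tpm3 alone overlapped between the groups at 0.271, 0.290, 0.334 and 0.287, and with its copy it was lower with Cus-1, at 0.367, 0.407, 0.335 and 0.288. Over the other 8 genes taken singly, Tpm3 alone was higher in both treated libraries for 4 and overlapped for 4. Tpm3 with its copy was lower for 6 and overlapped for 2. Over those 8 genes summed, Tpm3 alone was higher with Cus-1, at 0.188, 0.192, 0.236 and 0.201. With its copy it was lower, at 0.254, 0.269, 0.236 and 0.202. These ratios were chosen after the values were seen and were not tested.

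Among the other tropomyosins, the groups of Tpm1 and Tpm2 stood apart and those of Tpm4 overlapped. Tpm1, the alpha tropomyosin of muscle with many nonmuscle forms (chromosome 9, 67022590 to 67049406), read 105.77 and 92.99 FPKM in busulfan 1 and 2, against 52.6 and 71.13 FPKM in Cus-1 1 and 2. Both treated libraries lay below both busulfan ones, with means of 99.4 ± 9.04 and 61.9 ± 13.1 FPKM and a log2 fold change of -0.69 (SE 0.20). Tpm2, the beta tropomyosin of muscle (chromosome 4, 43514711 to 43523765), was at 59.24 and 39.99 FPKM against 34.03 and 38.43 FPKM. Its groups were apart by a margin of only 39.99 against 38.43, and its log2 fold change was -0.42 (SE 0.23). Tpm4, a nonmuscle tropomyosin (chromosome 8, 72134975 to 72153142), read 44.52 and 24.47 FPKM in busulfan 1 and 2, against 19.53 and 48.14 FPKM in Cus-1 1 and 2. Here the spread within a group was wider than the difference between the groups: Cus-1 2 was 2.465 times Cus-1 1, and the log2 fold change was -0.10 (SE 0.50). Gm26586, annotated as antisense within Tpm4, was at 1.84, 0.54, 0.79 and 2.78 FPKM in the same order of libraries. Of the 100-base stretches of Tpm4, 9.22% occurred in another gene, most of them in the pseudogene Gm7809, which was at 0.28 FPKM or less in every library, and the rest in Gm26586. Reads from within the stretches shared with Gm7809 cannot be told apart by sequence. For those shared with the antisense Gm26586 the strand setting would matter, and it is not given.

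As deposited, the 5 contractile genes had lower means with Cus-1, and in none of the 5 did the groups stand apart. Centring libraries on Sertoli cell genes, which shifts all genes up alike, turned their log2 fold changes positive. Overlap of the groups was read on the deposited values only. Acta2, the alpha actin of smooth muscle and the usual marker of peritubular myoid cells (chromosome 19, 34241090 to 34255590), read 123.37 and 77.07 FPKM in busulfan 1 and 2, against 71.75 and 90.89 FPKM in Cus-1 1 and 2. Cus-1 2 lay between the 2 busulfan libraries. Its means were 100.2 ± 32.7 and 81.3 ± 13.5 FPKM, and the log2 fold change of -0.27 had an SE of 0.27. Myh11, the smooth muscle myosin heavy chain that moves the filament (chromosome 16, 14194535 to 14291372), was at 24.49 and 15.89 FPKM against 13.69 and 18.85 FPKM. Myl9, a regulatory light chain of that myosin (chromosome 2, 156775420 to 156781658), was the most abundant of the 10 at 287.74 and 188.26 FPKM against 145.9 and 231.59 FPKM. In both myosin genes Cus-1 2 was above busulfan 2. The log2 fold change was -0.28 (SE 0.28) for Myh11 and -0.34 (SE 0.32) for Myl9.

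Tagln and Cnn1 encode transgelin and calponin, related actin-binding proteins of smooth muscle, both on chromosome 9. Tagln (45929619 to 45936058) read 28.39 and 20.49 FPKM in busulfan 1 and 2, against 17.73 and 21.63 FPKM in Cus-1 1 and 2, overlapping by the small step from 20.49 to 21.63. Of its 100-base stretches 48.26% also occur in other genes, nearly all in the antisense gene Gm48529, which was at 2.37, 2.61, 3.39 and 3.16 FPKM. Cnn1 (22099216 to 22109630), the least abundant of the 10 on average, was at 6.38 and 7.13 FPKM against 5.47 and 6.95 FPKM. It was the only one of the 10 that was lower in busulfan 1 than in busulfan 2. The log2 fold changes were -0.29 (SE 0.22) for Tagln and -0.11 (SE 0.22) for Cnn1.

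**Figure D3:**
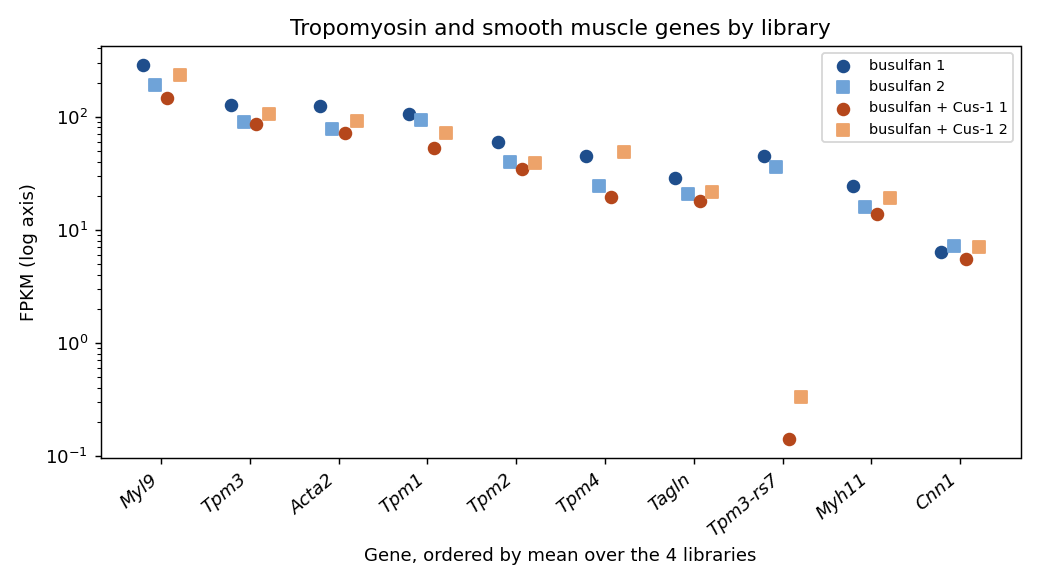
FPKM on a log axis (y) of the 10 genes (x, ordered by mean) in each library, blue for busulfan and orange for busulfan with Cus-1, circles for library 1 and squares for library 2 of a group. Tpm3-rs7 drops to 0.14 and 0.33 FPKM in the Cus-1 libraries, while for Acta2, Myh11, Myl9, Tagln, Tpm3 and Tpm4 the orange square lies above the light blue one.

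Taken by library, the same order recurred across these genes. The highest level was in busulfan 1 and the lowest in Cus-1 1 for 8 of 10 genes, an order held by 23.9% of the 19837 tested genes, and in 5 of the 8 Cus-1 2 was also above busulfan 2, an order held by 4.25% of the tested genes. Busulfan 1 was above busulfan 2 in 9 of 10 genes (46.3% of tested genes) and Cus-1 2 above Cus-1 1 in 10 of 10 (48.4%). Differences within a group were large: Acta2 in busulfan 1 was 1.601 times that in busulfan 2, and Myl9 in Cus-1 2 was 1.587 times that in Cus-1 1. Summed over the 9 genes other than Tpm3-rs7, the level was 807.56 and 555.81 FPKM in the busulfan libraries and 445.81 and 633.63 FPKM in the treated ones, so that here too the groups overlapped. In whole tissue, fewer cells of a type and less RNA per cell cannot be told apart.

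In all, both treated libraries lay below both busulfan ones for 3 of the 10 genes (Tpm1, Tpm2 and Tpm3-rs7), against 31.7% of all tested genes, and above them for 0, against 36.6%. The median log2 fold change of the 10 was -0.28, beside 0.04 for all tested genes. Marker lists of other somatic cells, read below, had lower medians than the 10. These were -0.82 for stromal, -0.75 for mural, -0.74 for Sertoli, -0.64 for macrophage, -0.56 for endothelial and -0.53 for Leydig markers. By limma with Benjamini-Hochberg adjustment, 0 of the 19837 genes (0%) were called at an adjusted p under 0.05, with 1975 lower (9.96%) and 3576 higher (18%) at an unadjusted p under 0.05. That split depended on the scaling: with quantile normalization 2697 were lower and 2831 higher, and with centring on Sertoli cell genes 70 and 8332. All 10 log2 fold changes were negative as deposited and with quantile normalization (median -0.38), but with each library centred on its Sertoli cell genes 8 of them, all but Tpm1 and Tpm3-rs7, turned positive. That centring, on a list lower in 14 of 14 genes, shifts every gene up alike and moved the median of all tested genes from 0.04 to 0.68. Because all genes shift alike, the place of the 10 genes below that median, at 0.35, carried over from the deposited values and is no separate result. Without busulfan 1, the log2 fold changes of Tpm3, Tpm4, Acta2 and Myh11 turned positive, at 0.08, 0.32, 0.07 and 0.02, and without Cus-1 1 those of Tpm4 and Cnn1 did, at 0.53 and 0.04.

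By level, Myl9 led in every library and Cnn1 was last in both busulfan libraries. FPKM is per length and so allows this order: Myl9, Tpm3, Acta2, Tpm1, Tpm2, Tpm4, Tagln, Tpm3-rs7, Myh11 and Cnn1 by mean over the 4 libraries. The ranges of neighbours overlapped for 7 of the 9 neighbour pairs. Only Myl9 against Tpm3 and Myh11 against Cnn1 had ranges apart over all libraries. Within libraries, Tpm3 was also above Acta2, Tpm1 above Tpm2 and Tpm4 above Tagln in each of the 4. Acta2 was above Tpm1, and Tpm2 above Tpm4, in 3 of 4. Tpm3-rs7 took its place only through the busulfan libraries, where it was above Tagln and Myh11, and was below Cnn1 in both treated ones.

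Genes around the contractile apparatus that are not among the 10 were also read, in 5 lists of 58 symbols by role, 52 of them tested. In 34 of the 52 both treated libraries were below both busulfan libraries, in 8 they were above, and in 10 the groups overlapped, with a median log2 fold change of -0.41. Over all tested genes, both treated libraries were below in 31.7% and above in 36.6%, with a median log2 fold change of 0.04. These shares also stand beside the counts of each list below. By limma, 0 of the 52 passed the adjusted threshold, and 13 were lower and 3 higher at an unadjusted p under 0.05. Of all tested genes, 9.96% were lower and 18% higher at that unadjusted threshold. The counts of 13 and 3 became 1 and 0 without busulfan 1, 5 and 0 when Cus-1 1 was left out, 14 and 6 when Cus-1 2 was, 0 and 7 with centring on Sertoli cell genes, and 18 and 2 with quantile normalization.

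Receptors of peritubular cells had the lowest median of the 5 lists. Of 8 receptor genes, 7 were lower in both treated libraries, with a median log2 fold change of -0.63. Oxtr, the oxytocin receptor, was at 17.11 and 21.99 FPKM against 11.36 and 15.84 FPKM (limma log2 fold change -0.50, SE 0.24, adjusted p = 0.220). Ptch1, the hedgehog receptor and target, was at 18.67 and 13.23 FPKM against 6.58 and 8.30 FPKM (-0.99, SE 0.24, adjusted p = 0.152). Agtr1a, an angiotensin receptor, went the other way, at 6.19 and 5.75 FPKM against 11.56 and 7.77 FPKM (0.59, SE 0.25, adjusted p = 0.192). In all 3 the groups did not overlap, and none passed the adjusted limma threshold.

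Regulators of contraction included genes in both directions. Of 11 tested genes 4 were lower in both treated libraries, 2 higher and 5 overlapping. Rhoa, the small GTPase that keeps myosin active, was at 169.19 and 153.65 FPKM against 108.37 and 125.68 FPKM (limma log2 fold change -0.46, SE 0.16, adjusted p = 0.163). Mylk, the kinase that switches on smooth muscle myosin, overlapped between the groups, with Cus-1 1 lowest, at 71.14, 73.54, 45.43 and 71.14 FPKM. Ppp1r12a, the targeting subunit of the phosphatase that switches myosin off, was at 67.57 and 61.92 FPKM against 51.1 and 57.53 FPKM.

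Among 21 tested thin filament and anchoring genes, 14 were lower in both treated libraries and 3 were higher. Actg1 and Actb, the cytoplasmic actins of all cells, were at 632 and 651 FPKM against 695 and 660 FPKM, and at 509 and 424 FPKM against 420 and 376 FPKM. The groups stood narrowly apart in both, with a limma log2 fold change of 0.08 (SE 0.17) for Actg1 (adjusted p = 0.766) and -0.22 (SE 0.18) for Actb (adjusted p = 0.421). Vim, an intermediate filament of mesenchymal and Sertoli cells, was lower at 257 and 214 FPKM against 111 and 171 FPKM (-0.76, SE 0.26, adjusted p = 0.160). Chosen after its values were seen, Actg2, the gamma actin of smooth muscle, read 31.98 and 25.73 FPKM in busulfan 1 and 2, against 99.65 and 41.06 FPKM in Cus-1 1 and 2, in the opposite direction to Acta2 as deposited. Spermatid markers were likewise highest in Cus-1 1, their summed level being 3070 and 3185 FPKM in the busulfan libraries and 11285 and 4196 FPKM in the treated ones, and their part in the Actg2 value was not tested.

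Of the 7 other myosin chains, 5 were lower in both treated libraries and 1 was higher. That one, named after its values were seen, was Myh10, a nonmuscle myosin heavy chain, at 12.0 and 14.26 FPKM against 25.34 and 19.62 FPKM (limma log2 fold change 0.73, SE 0.20, adjusted p = 0.152). Myl6, the essential light chain shared by smooth and nonmuscle myosin, was at 592 and 568 FPKM against 352 and 493 FPKM (limma log2 fold change -0.48, SE 0.22, adjusted p = 0.216). The nonmuscle regulatory chains Myl12b and Myl12a were at 143 and 152 FPKM against 108 and 147 FPKM, and at 117 and 97.3 FPKM against 68.2 and 85.3 FPKM. Only the groups of Myl12b overlapped among these 3. Of the 5 tested genes around SRF, the factor that drives smooth muscle genes, 4 were lower in both treated libraries and 1 was higher (Mrtfa, named after its values were seen). Fhl1, a LIM domain protein, was at 31.64 and 22.75 FPKM against 17.15 and 18.37 FPKM, Srf itself at 27.78 and 20.09 against 19.85 and 18.9 FPKM, and Fhl2, another LIM protein, at 30.72 and 24.15 against 14.09 and 16.4 FPKM. Their limma log2 fold changes were -0.57 (SE 0.21), -0.27 (SE 0.21) and -0.80 (SE 0.19), with adjusted p of 0.171, 0.386 and 0.152.

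**Figure D4:**
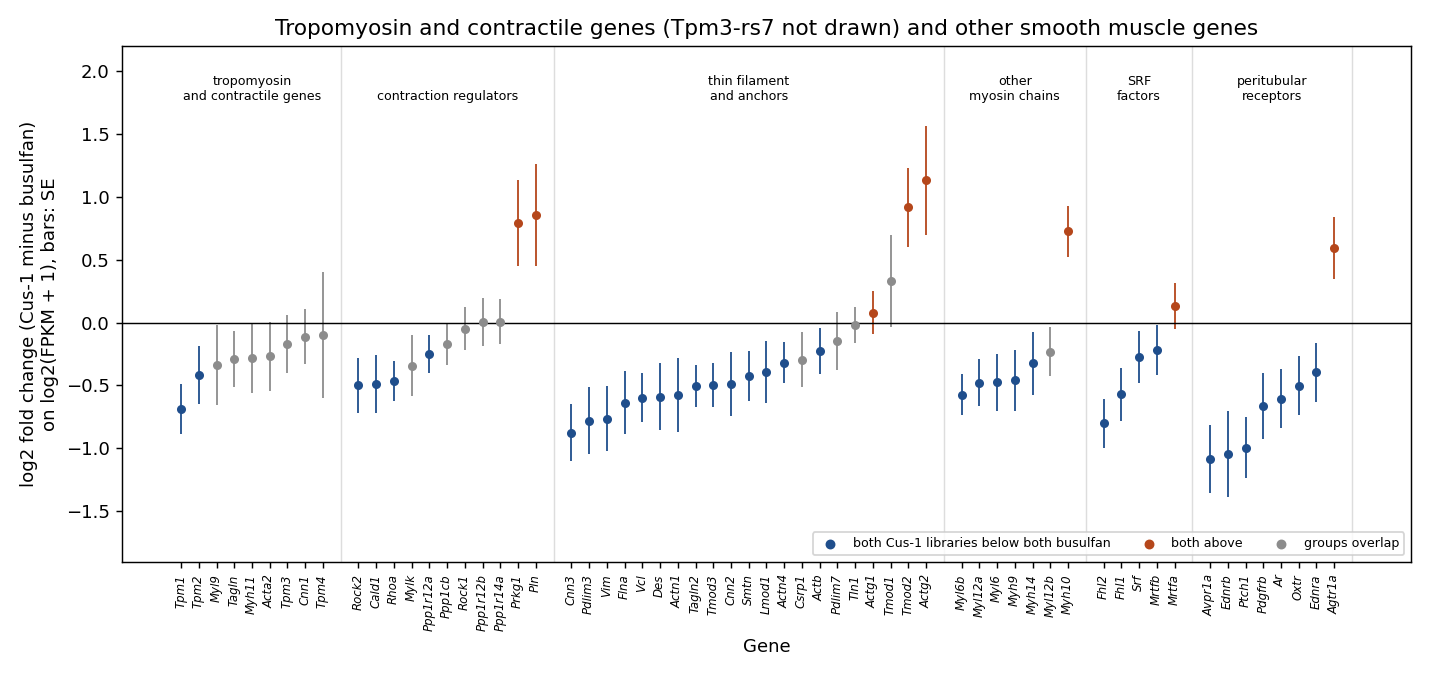
Log2 fold change (Cus-1 minus busulfan, y axis, bars are the SE) of 9 of the 10 genes and of the 52 tested genes in 5 role lists (x axis), coloured by whether the groups overlap. The contractile genes are grey, since their groups overlap as deposited, while 7 of 8 receptor genes are blue, with both Cus-1 libraries lower.

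SRF binds the CArG box, and windows from 250 bases before to 50 bases after the annotated start were searched for it on both strands in the RefSeq promoters of GRCm38.p6. Windows were at hand for 7 of the 10 genes, 8 windows in all because Tpm3 has 2 starts. An exact CArG box stood in 1 of the 8 windows, that of Myl9, and in 1.63% of all 32851 windows. With 1 base off allowed in the core, 4 of the 8 windows held one (Acta2, Myl9 and both of Tpm3), and so did 9.98% of all windows. The Acta2 window held CCCTATATGG 84 bases and CCTTGTTTGG 34 bases before the start, both 1 base off. The Myl9 stretch at chr2:156775284-156775403 on the plus strand is shown because it holds an exact box and one that is 1 base off, both in capitals.
Myl9: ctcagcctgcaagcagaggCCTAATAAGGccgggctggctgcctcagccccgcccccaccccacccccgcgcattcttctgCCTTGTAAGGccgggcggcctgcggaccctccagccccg
These matches are a description of the letters, and the data hold no measure of binding.

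The profiles closest to Acta2 over the 4 libraries, by Euclidean distance of centred log2(FPKM + 1) values among 12354 genes with a mean of 5 FPKM or more, were those of Ppic (7.98, 4.62, 4.22 and 5.77 FPKM), Gabbr1 (10.04, 6.12, 5.52 and 7.19 FPKM) and Gm42860 (32.15, 20.45, 18.42 and 23.85 FPKM), at distances of 0.030, 0.030 and 0.035. A profile here has only 4 points. Those closest to Tpm3-rs7 were Gm6314 (21.68, 32.55, 0 and 0 FPKM), mt-Co2 (38.66, 88.88, 0 and 0) and BC021767 (19.86, 17.02, 0.22 and 0.96), at larger distances of 0.70, 1.35 and 1.46. On chromosome 14 the nearest tested genes to Tpm3-rs7 were 1700128A07Rik, 6.83 Mb before it, and 1700100I10Rik, 1.62 Mb behind it. Both were higher with Cus-1, at 0.86 and 2.09 against 4.87 and 2.81 FPKM and at 33.16 and 57.42 against 81.21 and 99.61 FPKM.

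Markers of other cells that could carry contractile genes, or that differ between the groups, were read beside them. As a measure for the counts that follow, both treated libraries were lower in 31.7% and higher in 36.6% of all tested genes. Vessel wall (mural) markers summed to 38.78 to 43.12 FPKM over 7 genes in the busulfan libraries and to 24.25 to 27.18 FPKM in the treated ones, led by Rgs5 and Mcam, with 4 of 6 tested genes lower in both treated libraries. Stromal markers, led by Dcn and Col1a2, were lower for 6 of 6, at 267.77 to 433.8 against 175.55 to 225.43 FPKM. Sertoli cell markers, led by Clu and Ptgds, were lower for 14 of 14, at 8523 to 10135 against 4865 to 6073 FPKM. Leydig (Insl3, Cyp17a1), endothelial (Cldn5, Egfl7) and macrophage (C1qa, C1qb) markers were lower for 5 of 8, 6 of 7 and 6 of 8, at 26694 to 27193 against 13186 to 19471 FPKM, 53.25 to 71.29 against 36.23 to 42.96 FPKM and 386.33 to 532.12 against 227.62 to 305.3 FPKM. Spermatocyte markers (Ldhc, Mael) were higher for 8 of 8, at 1613 to 2362 against 3369 to 3831 FPKM, and spermatid markers (Tnp1, Prm1) for 9 of 9. The 10 markers of skeletal muscle, which also carries Tpm1 and Tpm2, summed to only 4.61 to 7.06 and 3.6 to 5.14 FPKM, led by Mylpf and Tnni2, with the fibre genes Myh2 and Acta1, named after their values were seen, at 0.19 or less. Epididymal Crisp1 and Adam7, 2 of 8 listed genes in the table, did not exceed 0.27 FPKM, and the 5 fat markers, led by Plin1 and Fabp4, summed to 19.72 to 31.25 against 6.19 to 11.03 FPKM. The part of these cell mixtures in the levels of the 10 genes was not tested.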

How the data were processed

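The authors deposited 1 table of FPKM values per gene and library, printed to 2 decimals. The submitters' processing notes name mm10 as the build. Which aligner, counter, annotation, strand setting and filters were used is not given in the sources used here, where only the build is named. Each column was matched to its sample by the library name in the labels. The table held 45536 rows with values, of which 910 without a gene name (0.641% to 0.688% of summed FPKM) were left out, and 115 symbols on more than 1 row were read from the row with the highest mean. A gene was tested where 2 or more libraries reached 1 FPKM, by limma 3.58.1 in R 4.3.3 (trended empirical Bayes), on log2(FPKM + 1), Benjamini-Hochberg adjusted over all 19837, threshold 0.05. The fit was tested on simulated data with the same spread for every gene, which is not the spread of these libraries.

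Genes and lists were chosen with earlier results of these data known. Named beyond the 10 genes were the 3 most abundant tested genes of each role list, the 2 most abundant of each marker list and the 3 profiles nearest to Acta2 and to Tpm3-rs7. Genes named outside this rule (Actg2, Des, Myh10, Mrtfa, Myh2 and Acta1, the shared copies and neighbours) were chosen after their values were seen. Transcripts were aligned with Biopython 1.88 (local), and shared stretches were exact matches on either strand to any GENCODE M21 transcript. Unannotated copies were not searched. Alternatives were another pseudocount, other filters, quantile normalization, centring on Sertoli genes and leaving out each library.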

Additional observations from a re-analysis of the deposited data

How the results depend on the processing

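No paired analysis was possible because the labels give the groups no shared replicate numbers. The 0 calls over all genes and the 0 over the role lists became, for all genes, 2 with centring on Sertoli genes and 0 to 7 when 1 library was left out, the 7 arising without Cus-1 1. Of the 10 genes, which were chosen on this comparison, no call is read, although Tpm3-rs7 is within these counts where they were above 0. They stayed 0 for the role lists in each case. At an unadjusted limma p under 0.05, Sertoli centring gave 70 lower and 8332 higher genes, and 0 and 7 in the role lists. Leaving out 1 library gave 426 to 1996 lower and 1159 to 3821 higher genes, and 1 to 14 and 0 to 6 in the role lists, the lowest counts arising without busulfan 1 and, for the higher role-list genes, without Cus-1 1 too. The median log2 fold change of the 10 genes was 0.35 with Sertoli centring and -0.59 to -0.05 with 1 library left out; that of Tpm3 and Tpm3-rs7 together, -0.62 as deposited, was 0.017 with Sertoli centring and -0.85 to -0.40 with 1 library left out. With a pseudocount of 0.1 the Tpm3-rs7 log2 fold change was -6.97 in place of -5.07. For the pair, the length weighting, other filters and pseudocount kept the value within the spread between libraries. The cause of these shifts was not tested. With 2 libraries a group, an arm reduced to 1 is assumed to vary like the other. The FPKM of Tpm3-rs7 with Cus-1 rests on an estimated 4.4 and 8.7 fragments.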

Other observations

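Some symbols were at 10 FPKM or more in both libraries of a group and below 1 FPKM in both of the other. They were picked on that group difference itself, 5 lower and 5 higher with Cus-1. Gm6314 and Gm69616 were not matched to the annotation, which left 8. For 6 of these 8 annotated symbols, the gene sharing most 100-base stretches is in the table too, Tpm3 for Tpm3-rs7 among them. The exceptions are Ahcy, whose closest match Gm4737 was not analysed here, and Gm37746, which shared no stretch. For comparison, 41.4% of the 16538 tested genes found in the annotation shared at least 1 such stretch with another annotated gene. BC021767, Gm43110, Gm9118 and Rpl17-ps5 are annotated as pseudogenes. Npm1, which shares most with Gm9118, read 273.77 and 318.75 FPKM in busulfan 1 and 2, then 331.83 and 291.69 FPKM in Cus-1 1 and 2, while Gm9118 read 0.41, 0, 14.67 and 32.68 FPKM. Get4, which shares most with Gm43110, read 83.21, 85.89, 82.79 and 74.08 FPKM, while Gm43110 was listed at 0 in both busulfan libraries and read 22.81 and 39.71 FPKM in the others. Cgn, which shares most with BC021767, read 74.77, 52.94, 38.4 and 40.14 FPKM. Gm28661, which shares most with mt-Co2, read 14573, 14187, 9637 and 12720 FPKM, the same direction as mt-Co2. Rpl17-ps8, which shares most with Rpl17-ps5, was listed at 0 in all libraries but Cus-1 1, where it read 4.66 FPKM. Whether fragments were assigned to another copy in any of these was not tested.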
